A study of Homo sapiens with 2 samples.

Results

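The genes described here are 10 enzymes that make, activate or interconvert androgens, namely STS, HSD3B1, AKR1C3, SRD5A1, SRD5A3, HSD17B6, HSD17B10, HSD17B4, AKR1C1 and AKR1C2. They were chosen by symbol, and all 10 were found among the 26475 symbols listed in each deposited table. Their RNA was measured in C4-2B ENZR cells, a human prostate cancer cell line that grows in spite of the antiandrogen drug enzalutamide and that was cultured here with 20 µM of it. One library came from cells with a stably integrated lentiviral hairpin against the coding region of NRP2, a cell-surface receptor for semaphorins and VEGF-C, and 1 library came from cells with a non-targeting hairpin. Both kinds of cell were drug-selected, carried a hairpin and stayed in enzalutamide, and the sources used here do not say whether the lines were pools or clones. With 1 library in each group there is no spread between replicates, and no test between the conditions can be made.

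Prostate cancer cells that are denied testicular androgen can still be fed by weak precursors from the adrenal gland, which circulate largely as sulfates. Steroid sulfatase frees them, a 3-beta-hydroxysteroid dehydrogenase and a ketosteroid reductase turn them into testosterone or its precursors, and 5-alpha-reductases yield dihydrotestosterone, the most potent natural androgen. Other enzymes of the aldo-keto reductase and short-chain dehydrogenase families either remove dihydrotestosterone or regenerate it from its reduced form. This supply inside the tumour cell is one of the known routes by which prostate cancer escapes androgen deprivation.

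The differences between the libraries were small for most of the enzymes. Of the 10 enzymes, 9 averaged 1 CPM or more across the libraries, the level set for comparing a gene; CPM are reads per gene scaled to the size of the library. None of these 9 differed by 1.5-fold on the log2(CPM + 1) scale, on which the change of a low gene is understated. Over all 13316 genes compared, 5.78% passed 1.5-fold upwards and 3.57% downwards in the knockdown library, so 0 of 9 is near the background. At 2-fold the shares were 1.46% upwards and 0.526% downwards, and 0 of the 9 enzymes passed. With equal library totals in place of the deposited scaling, the split of all genes past 1.5-fold was 587 higher and 646 lower (47.6% higher), beside 769 and 476 (61.8% higher) as deposited, and 0 of the 9 passed under either. The median log2 change of the 9 enzymes was 0.15, beside 0.03 over all genes compared, and 6 of the 9 lay above 0, beside 54.1% of all genes. The tenth enzyme, HSD3B1, lay below the level for comparison and had the largest ratio of all 10.

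The knockdown library held 22992304 reads and the control library 21052178, recovered as whole reads from the deposited values. One read was worth 0.0472 CPM in the knockdown library and 0.0487 CPM in the control library. NRP2 itself had 7 reads in the knockdown library and 20 in the control library, 0.330 against 0.974 CPM, which was 2.95-fold lower (counting interval 1.20 to 8.26) and low in both. All 12 luminal prostate markers looked at averaged 1 CPM or more, with summed levels of 5160 CPM in the knockdown library and 4683 CPM in the control library. Of 9 adrenal cortex markers, 7 had 0 reads in both libraries, and their summed levels were 0.236 and 0.0487 CPM. Of the other markers, 2 of 8 neuroendocrine, 3 of 7 fibroblast, 1 of 6 endothelial, 1 of 8 immune and 3 of 8 liver genes reached 1 CPM, with summed levels of 3.30, 36.8, 3.87, 11.4 and 5.19 CPM in the knockdown library and 3.99, 46.7, 4.09, 7.84 and 7.01 CPM in the control library. Most of the fibroblast sum was COL1A1, while DCN had 0 reads in both libraries. The part of any other cell type in the values below was not tested. In RNA from whole cultures, fewer cells of a type and less RNA per cell cannot be told apart.

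**Figure D1:**
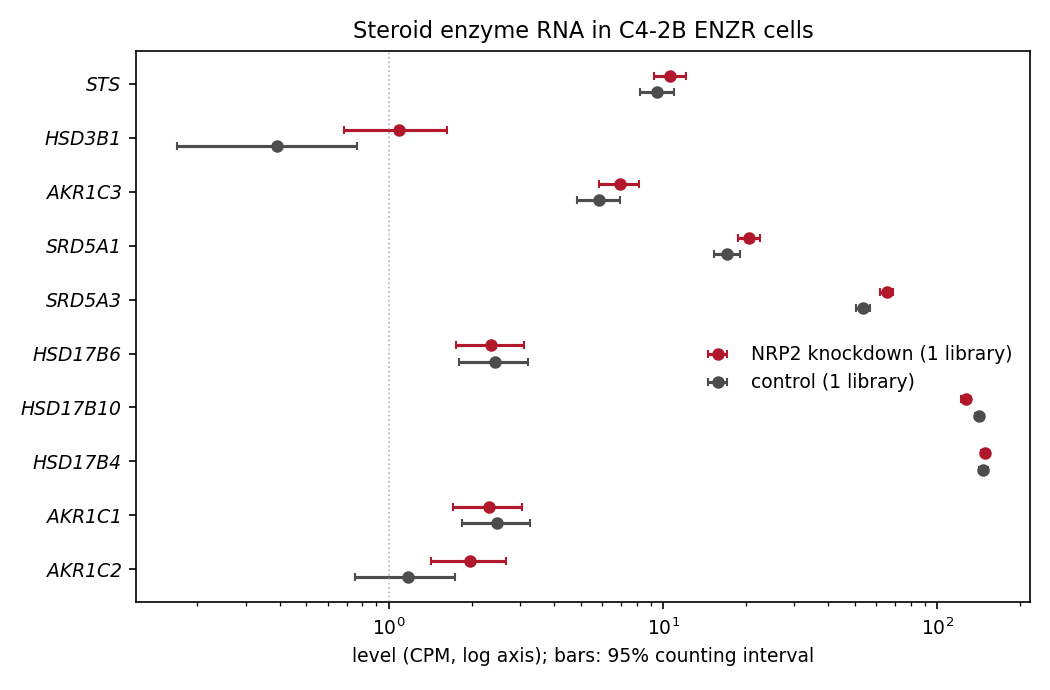
Level of each of the 10 enzymes in CPM on a log axis, with the NRP2 knockdown library above the control library and bars for the 95% counting interval; the dotted line marks 1 CPM. HSD17B4 and HSD17B10 lie above 100 CPM in both libraries, and HSD3B1 is the lowest enzyme in both.

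STS, steroid sulfatase, releases dehydroepiandrosterone and estrone from their sulfates in the endoplasmic reticulum. STS was at 10.6 CPM in the knockdown library and 9.49 CPM in the control library, from 225 and 195 reads. The ratio of knockdown to control was 1.12, and its exact 95% interval, which covers counting error only, ran from 0.919 to 1.36. This interval includes no difference.

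HSD3B1 encodes the peripheral 3-beta-hydroxysteroid dehydrogenase, which converts dehydroepiandrosterone to androstenedione and is the step that commits the precursor to the androgen route. It was the lowest enzyme in CPM, with 23 reads in the knockdown library and 8 in the control library, or 1.08 and 0.389 CPM. The knockdown level was 2.79-fold higher, with a counting interval from 1.20 to 7.20. On the log2(CPM + 1) scale the change was 0.59, just past 1.5-fold, but the mean level of 0.737 CPM kept HSD3B1 out of the genes compared. HSD3B2, the adrenal and gonadal form of the same enzyme and its neighbour on chromosome 1, had 0 reads in both libraries.

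AKR1C3, an aldo-keto reductase with 17-beta-hydroxysteroid dehydrogenase activity, reduces androstenedione to testosterone. It was at 6.93 CPM in the knockdown library and 5.84 CPM in the control library, from 147 and 120 reads. The ratio was 1.19 (0.926 to 1.52), which includes no difference.

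SRD5A1 is the 5-alpha-reductase that predominates in castration-resistant prostate cancer, where it acts mainly on androstenedione. SRD5A1 was at 20.6 CPM in the knockdown library and 17.1 CPM in the control library, 1.20-fold higher (1.04 to 1.38). SRD5A3, a member of the same family, is best known as the polyprenol reductase that makes dolichol for protein N-glycosylation. SRD5A3 was at 65.4 CPM in the knockdown library and 53.6 CPM in the control library, 1.22-fold higher (1.13 to 1.32). Both were thus slightly higher in the knockdown library, under 1.5-fold. SRD5A2, the form typical of normal prostate, had 0 reads in both libraries, which allows up to 0.141 CPM in the knockdown library and 0.146 CPM in the control library (3 reads).

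With both libraries set to equal totals in place of the deposited scaling, the ratio of SRD5A1 was 1.13 with an interval from 0.983 to 1.31, which includes no difference. That of SRD5A3 was 1.15 with an interval from 1.07 to 1.25. The excess of SRD5A1 therefore depends on the scaling, and that of SRD5A3 kept its side of no difference under both.

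HSD17B6, a short-chain dehydrogenase, oxidizes androstanediol back to dihydrotestosterone. It had 50 reads in each library, 2.36 CPM in the knockdown library and 2.43 CPM in the control library, and the ratio of 0.969 had an interval from 0.641 to 1.46. HSD17B10, a mitochondrial enzyme that can also oxidize androstanediol and that serves in isoleucine breakdown and in mitochondrial tRNA processing, was at 127 CPM in the knockdown library and 142 CPM in the control library. It was the only compared enzyme whose counting interval lay below no difference, at 1.12-fold lower (1.06 to 1.18), and the ratio of knockdown to control was 0.846 (0.803 to 0.892) with equal library totals. HSD17B4, the peroxisomal D-bifunctional protein of beta-oxidation, which also oxidizes the 17-beta-hydroxyl of steroids, was at 149 CPM in the knockdown library and 147 CPM in the control library. Its ratio of 1.01 (0.965 to 1.07) was 0.959 (0.912 to 1.01) with equal totals, and its log2 change of 0.02 was also below 0, at -0.01, with the median of all genes set to 0. Its direction thus turned with the scaling, while its interval included no difference as deposited and with equal totals.

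AKR1C1 and AKR1C2 differ from AKR1C3 in the steroids they are best known to reduce. AKR1C2 inactivates dihydrotestosterone to androstanediol, and AKR1C1 is best known for the removal of progesterone. AKR1C1 was at 2.31 CPM in the knockdown library and 2.48 CPM in the control library, from 49 and 51 reads, a ratio of 0.931 (0.616 to 1.41). AKR1C2 was at 1.98 CPM in the knockdown library and 1.17 CPM in the control library, from 42 and 24 reads. Its ratio of 1.70 had an interval from 1.00 to 2.93, whose lower end lay at 0.948 with equal totals. AKR1C2 had the largest log2 change of the 9 enzymes compared, 0.46, and 15.2% of all genes compared had a change at least as large in either direction.

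**Figure D2:**
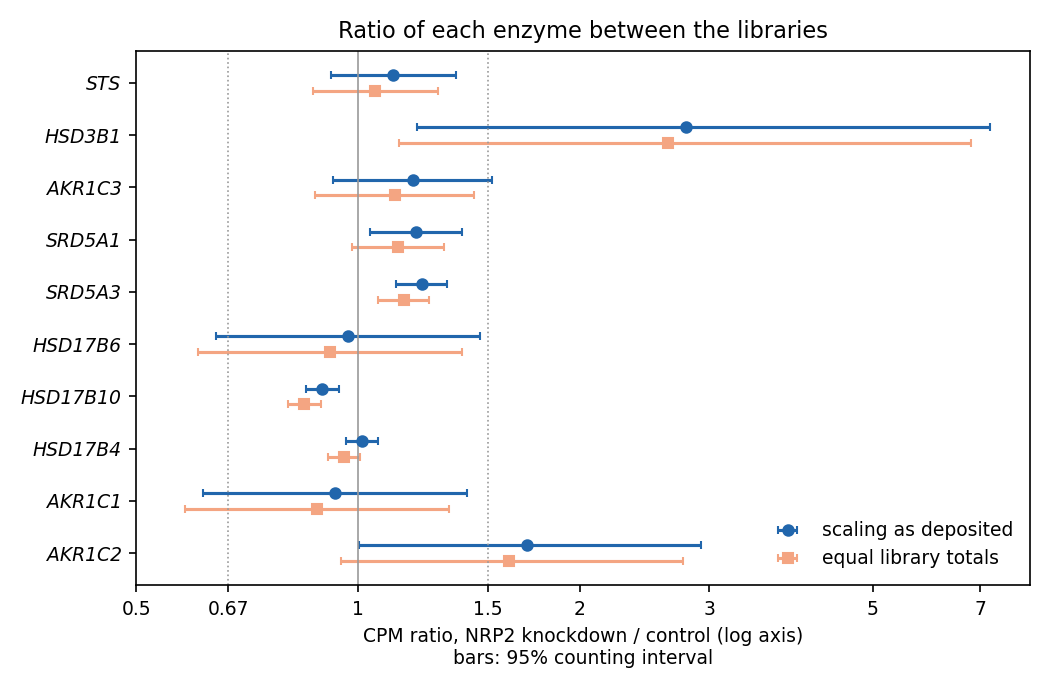
Ratio of knockdown to control CPM for each enzyme on a log axis, with the 95% counting interval, as deposited (circles) and with equal library totals (squares); the solid line marks no difference and the dotted lines 1.5-fold. With equal totals, SRD5A3 and HSD3B1 lie above no difference with their whole interval and HSD17B10 below it.

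Counting intervals lay above no difference for 3 of the 9 compared enzymes (SRD5A3, SRD5A1 and AKR1C2) and below it for 1 (HSD17B10). Over all genes compared, 32.7% lay above and 24% below, 56.8% in all, so 4 of 9 is not more than the background. With equal totals the split turned round: 23.2% of all genes lay above and 34.4% below, and among the 9 enzymes 1 lay above (SRD5A3) and 1 below (HSD17B10). An exact binomial test on the recovered reads, with Benjamini-Hochberg adjustment over all genes compared, called 7016 of 13316 genes (52.7%) and 3 of the 9 enzymes, SRD5A1, SRD5A3 and HSD17B10. It compares these 2 libraries, not the conditions. The 3 called enzymes differed by 1.12-fold to 1.22-fold. HSD17B4, with the most reads of the 9, and STS were not called, nor were AKR1C1, AKR1C2, AKR1C3 and HSD17B6, each with under 150 reads in a library.

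**Figure D3:**
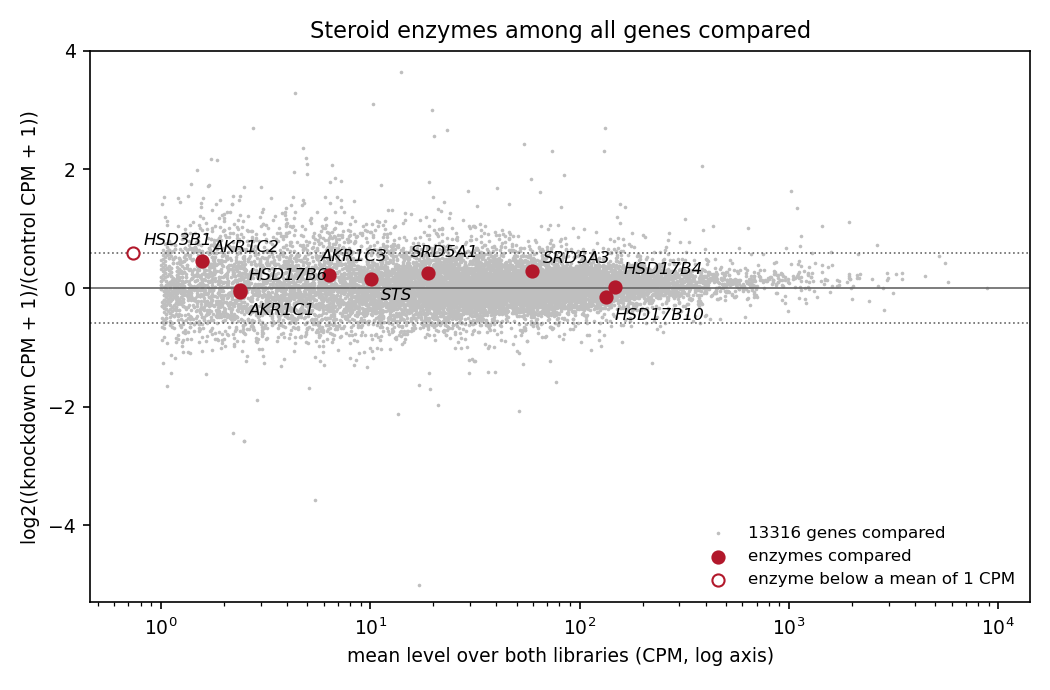
Change in the knockdown library relative to control, as log2((knockdown CPM + 1)/(control CPM + 1)), against mean level on a log axis, for the 13316 genes compared (grey) and the enzymes (red; open circle for HSD3B1, below 1 CPM); dotted lines mark 1.5-fold. The 9 compared enzymes lie between -0.16 and 0.46.

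Levels of different genes can be set side by side only per length of transcript. Per kilobase of the principal GENCODE transcript, HSD17B10 was the highest enzyme, at 132 CPM per kilobase in the knockdown library and 148 in the control library, followed by HSD17B4 at 55.6 and 54.8 and SRD5A3 at 15.6 and 12.8. The order of HSD17B10 and HSD17B4 in CPM was the other way round in both libraries. AKR1C3 stood at 3.84 and 3.23, SRD5A1 at 2.88 and 2.40, STS at 1.63 and 1.46 and HSD17B6 at 1.35 and 1.39 CPM per kilobase in the knockdown and the control library. HSD3B1, AKR1C2 and AKR1C1 were lowest, at 0.647, 0.527 and 0.345 in the knockdown library and 0.232, 0.311 and 0.370 in the control library, and their counting intervals overlapped between neighbours in both. STS and HSD17B6 also overlapped. The order depends on the length used, and where a gene had several principal transcripts the longest was taken. The AKR1C1 transcript had 6705 bases, beside 3756 for AKR1C2 and 1807 for AKR1C3. Per kilobase of coding sequence SRD5A1 stood above AKR1C3, at 26.5 against 7.15 in the knockdown library and 22.1 against 6.03 in the control library. AKR1C1 stood above HSD3B1 without overlap of their intervals, at 2.38 against 0.969 in the knockdown library and 2.56 against 0.348 in the control library. SRD5A3 stood above HSD17B4 in the knockdown library, at 68.6 against 67.6 with overlapping intervals, but below it in the control library. HSD17B10 stayed highest.

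AKR1C1, AKR1C2 and AKR1C3 lie next to each other among the coding genes of chromosome 10, and their coding sequences have the same length, 969 bases. AKR1C1 and AKR1C2 differ at 19 of these bases (98.0% identity), and AKR1C3 differs from AKR1C1 at 83 (91.4%) and from AKR1C2 at 87 (91.0%). The longest run without a difference between AKR1C1 and AKR1C2 is 186 bases. The 60 bases from 103 to 162 of the coding sequence hold 10 of the 19 differences, which no other stretch of that length exceeds, and are shown from the GENCODE transcripts because reads here can tell the genes apart. Capitals mark, in AKR1C1 and AKR1C2, the bases that differ between these genes, and in AKR1C3 the bases that differ from both.
AKR1C1: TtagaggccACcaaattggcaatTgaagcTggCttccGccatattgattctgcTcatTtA
AKR1C2: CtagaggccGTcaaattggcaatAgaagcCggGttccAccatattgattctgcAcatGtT
AKR1C3: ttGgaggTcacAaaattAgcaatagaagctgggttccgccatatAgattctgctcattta

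Elsewhere reads may not tell them apart. Of all windows of 50 bases in the principal AKR1C2 transcript, 52.2% were also found letter for letter in a transcript of another gene, and 32.9% of windows of 100 bases. For AKR1C1 these shares were 28.7% and 17.4%, for AKR1C3 12.1% and 4.98%, and for HSD3B1, which resembles HSD3B2, 8.42% and 0.254%. The AKR1C1 transcript is longer than that of AKR1C2. Within the coding sequences alone, 51.6% of the AKR1C1 windows of 50 bases were found in AKR1C2, and the same share the other way round. SRD5A3 shared 4.81% and 2.44%, mostly with its antisense transcript SRD5A3-AS1. HSD17B4, HSD17B6 and HSD17B10 shared none, STS shared 0.0927% and 0%, and SRD5A1 1.33% and 0%. The sources used here give neither the read length nor the handling of reads that match several genes.

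**Figure D4:**
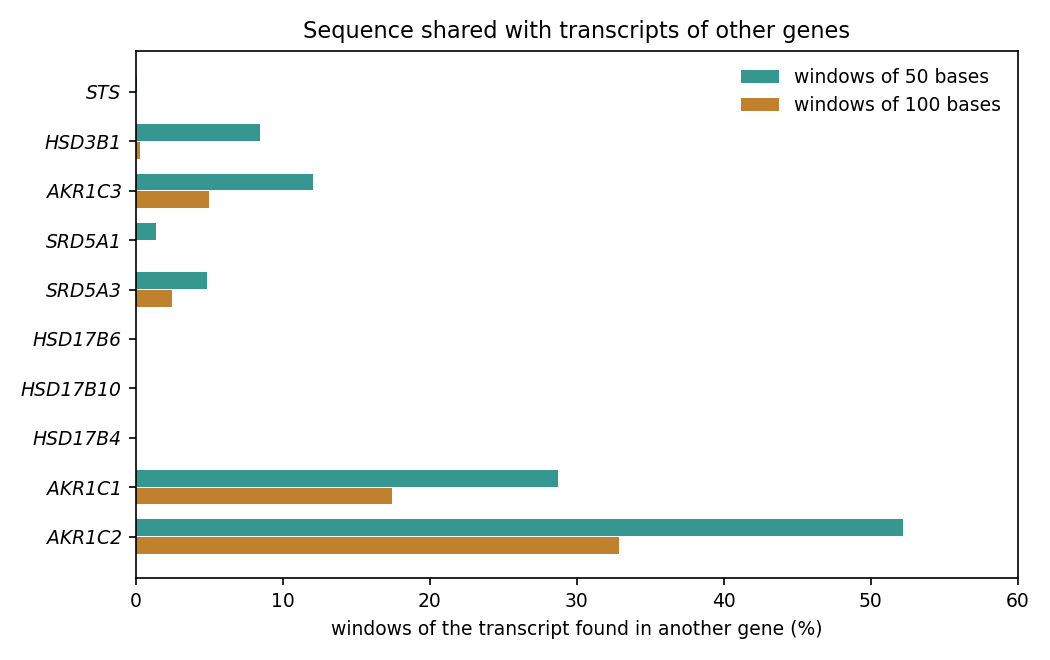
Share of all windows of 50 or 100 bases in the principal transcript of each enzyme that occur letter for letter, on either strand, in a transcript of another gene. AKR1C2, AKR1C1 and AKR1C3 have the 3 largest shares; HSD17B4, HSD17B6 and HSD17B10 have none.

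The division between AKR1C1 and AKR1C2 is thus uncertain, and their sum is the safer measure. Summed, AKR1C1 and AKR1C2 were at 4.29 CPM in the knockdown library and 3.65 CPM in the control library, a ratio of 1.18 (0.856 to 1.62). AKR1C2 held 42 of these 91 reads (46.2%, exact 95% interval 35.6% to 56.9%) in the knockdown library and 24 of 75 (32%, 21.7% to 43.8%) in the control library. The intervals overlap. The 3 genes together were at 11.2 CPM in the knockdown library and 9.49 CPM in the control library, a ratio of 1.18 (0.974 to 1.44), and AKR1C3 held 61.8% and 61.5% of their reads. AKR1C4, the liver form, and the pseudogenes AKR1C6P and AKR1C8P had 0 reads in both libraries.

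The promoters of AKR1C1 and AKR1C2 are about as alike as their coding sequences, while that of AKR1C3 is less like them than its coding sequence is. They are shown because AKR1C1 and AKR1C2, between which the division of reads is uncertain, share nearly the same promoter. AKR1C2 had the largest change among the enzymes compared and AKR1C1 almost none. Both rest on few reads, so no contrast between these 2 genes is drawn. Of the 10 enzymes, 9 had an entry in the RefSeq promoter table (build GRCh38.p14), which gives 250 bases before and 50 after a gene start. Where a gene had several entries, the one nearest the start of the principal GENCODE transcript was taken. Over the aligned bases, the AKR1C1 and AKR1C2 promoters differed at 4 of 292 (98.6% identity), AKR1C1 and AKR1C3 at 58 of 283 (79.5%), and AKR1C2 and AKR1C3 at 54 of 279 (80.6%). Capitals mark the longest stretch that all 3 share, 19 bases that hold a CCAAT box in reverse and start 84, 88 and 93 bases before the gene start of AKR1C1, AKR1C2 and AKR1C3. The stretch was found in 3 of all 35116 promoters of the table, those shown.
AKR1C1, chr10:4963165-4963464, plus strand: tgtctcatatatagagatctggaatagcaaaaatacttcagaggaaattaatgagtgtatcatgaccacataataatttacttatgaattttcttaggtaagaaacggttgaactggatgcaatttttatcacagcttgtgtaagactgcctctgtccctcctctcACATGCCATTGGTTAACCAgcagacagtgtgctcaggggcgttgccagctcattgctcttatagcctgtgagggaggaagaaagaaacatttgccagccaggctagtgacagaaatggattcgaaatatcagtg
AKR1C2, chr10:5003808-5004107, minus strand: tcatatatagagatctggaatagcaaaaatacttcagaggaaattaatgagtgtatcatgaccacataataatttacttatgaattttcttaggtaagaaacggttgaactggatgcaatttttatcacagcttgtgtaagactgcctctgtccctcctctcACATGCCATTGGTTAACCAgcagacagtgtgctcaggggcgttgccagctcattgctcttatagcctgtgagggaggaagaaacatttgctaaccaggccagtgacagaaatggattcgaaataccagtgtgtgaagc
AKR1C3, chr10:5094164-5094463, plus strand: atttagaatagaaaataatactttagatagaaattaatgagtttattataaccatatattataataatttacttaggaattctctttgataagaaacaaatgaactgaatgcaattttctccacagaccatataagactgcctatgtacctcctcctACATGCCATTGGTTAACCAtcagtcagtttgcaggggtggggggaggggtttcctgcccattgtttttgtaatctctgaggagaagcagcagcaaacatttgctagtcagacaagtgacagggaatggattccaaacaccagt

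Short motifs were searched on both strands, because genes of the response to oxidants, to low oxygen and to androgen were measured in the same libraries. The NRF2 antioxidant response element TGACNNNGC was found in 1 of the 9 promoters, that of SRD5A3, and in 13.3% of all promoters. The hypoxia response core ACGTG was found in 2, those of SRD5A3 and HSD17B10, and in 21.4% of all promoters. The androgen response half-site AGAACA, a part of the full element, was found in 0 of the 9 and in 14.8% of all. The full element was not searched. The SRD5A3 promoter is printed with the matches of the NRF2 element and the hypoxia core in capitals; its first capitals, CACGTG, read the same on both strands and hold the core on each. A match is a description of the letters and no evidence of binding.
SRD5A3, chr4:55345992-55346291, plus strand: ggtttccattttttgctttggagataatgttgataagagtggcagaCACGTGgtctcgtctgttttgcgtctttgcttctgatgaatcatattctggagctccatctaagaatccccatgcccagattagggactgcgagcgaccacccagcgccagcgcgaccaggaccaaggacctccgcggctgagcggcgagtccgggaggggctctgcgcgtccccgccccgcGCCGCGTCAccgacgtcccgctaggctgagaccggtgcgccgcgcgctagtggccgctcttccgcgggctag

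Of the classical first steps from cholesterol, CYP17A1, CYP11A1 and STAR were at or near 0 in both libraries. Some other genes of early steroidogenesis were not. TSPO was at 207 CPM in the knockdown library and 172 CPM in the control library, 1.20-fold higher (1.15 to 1.26). CYB5R3 was at 147 and 124 CPM and STARD3 at 56.5 and 52.8 CPM. CYP17A1, which makes the androgen precursors from pregnenolone, had 0 reads in both, which allows up to 0.141 CPM in the knockdown library and 0.146 CPM in the control library. CYP11A1, the side-chain cleavage enzyme, had 4 reads in the knockdown library and 0 in the control library, and STAR, which carries cholesterol into mitochondria, had 1 in each. HSD17B3, the testicular enzyme that makes testosterone, had 3 reads in the knockdown library and 1 in the control library. In contrast, RNA of electron donors and helpers of CYP17A1 and CYP11A1 was plentiful. CYB5A, cytochrome b5, which aids the lyase step of CYP17A1 and serves other enzymes as well, was at 195 CPM in the knockdown library and 109 CPM in the control library, 1.80-fold higher (1.71 to 1.89). POR, the P450 reductase, was at 114 CPM in the knockdown library and 101 CPM in the control library, and FDXR, ferredoxin reductase, at 82.1 and 65.1 CPM. FDX1, ferredoxin, lay slightly the other way, at 68.5 CPM in the knockdown library and 73.2 CPM in the control library. Its ratio of 0.936 (0.870 to 1.01) includes no difference.

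Other steps of steroid handling, in 6 lists, held 71 genes, of which 40 reached a mean of 1 CPM. Of these 40, 2 passed 1.5-fold upwards and 4 downwards, beside 5.78% and 3.57% of all genes compared, and the median log2 change was 0.16. With equal totals, the median set to 0 or quantile normalization the 4 became 6 and the 2 stayed at 2. The 2 higher genes were CYB5A and SLCO2A1, a prostaglandin transporter, at 1.93 CPM in the knockdown library and 0.633 CPM in the control library. The 4 lower genes were UGT2B11, UGT2B17, PAPSS1 and PGD.

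Among the other 17-beta-hydroxysteroid dehydrogenases and their relatives, 7 of 12 were compared and 0 passed 1.5-fold in either direction. RDH11, an androgen-induced retinal reductase, had the largest change, at 141 CPM in the knockdown library and 208 CPM in the control library, 1.48-fold lower (1.41 to 1.55). It passed 1.5-fold with equal totals, with the median set to 0 and with quantile normalization. HSD17B11, HSD17B14 and HSD17B8 had log2 changes of 0.35, 0.34 and 0.29. Of 10 other reductases, 4 were compared and 0 passed. Carbonyl reductase CBR1 was at 119 CPM in the knockdown library and 92.0 CPM in the control library, a log2 change of 0.37, and AKR1A1, AKR7A2 and CBR4 had log2 changes of 0.19, 0.14 and -0.11.

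Sulfation opposes STS. PAPSS1, which makes the sulfate donor for sulfotransferases, was at 62.3 CPM in the knockdown library and 96.3 CPM in the control library, 1.55-fold lower (1.44 to 1.66). SULT2B1, a sulfotransferase of hydroxysteroids and cholesterol, was at 8.77 CPM in the knockdown library and 6.38 CPM in the control library, a ratio of 1.38 (1.09 to 1.73). SULT2A1 and SULT1E1, which sulfate dehydroepiandrosterone and estrogens, had 0 reads in both. The phenol sulfotransferase SULT1A1 was listed at 13.6 CPM in the knockdown library and 8.81 CPM in the control library. That value is uncertain, since its relatives SULT1A3 and SULT1A4, named after their values were seen, each had 0 reads in the knockdown library and 102 in the control library. Of 11 compared genes of sulfation and uptake, 1 was higher and 1 lower, beside 5.78% and 3.57% of all genes compared.

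Of 12 inactivating enzymes, 5 were compared. Of these, 0 were higher and 2 lower, beside 5.78% and 3.57% of all genes compared. Both were glucuronosyltransferases, a family that inactivates androgens for excretion. UGT2B11 was at 3.82 CPM in the knockdown library and 6.77 CPM in the control library, 1.77-fold lower (1.34 to 2.36). UGT2B17 was at 2.17 and 3.85 CPM, from 46 and 79 reads, 1.77-fold lower (1.22 to 2.61). UGT2B15 was at 15.6 CPM in the knockdown library and 23.9 CPM in the control library, a log2 change of -0.58 that was past 1.5-fold under each of the 3 other scalings, whereas UGT2B10 was at 2.22 and 1.36 CPM. These genes resemble one another, so how reads were divided among them is uncertain. HSD11B2, which inactivates cortisol, was at 46.6 CPM in the knockdown library and 34.4 CPM in the control library, while HSD11B1, its opposite, had 0 reads in both. Of 6 compared genes of glucocorticoid conversion and NADPH supply, 0 were higher and 1 lower, beside the same shares of all genes. The lower gene was PGD, a source of the NADPH that reductases use, at 204 CPM in the knockdown library and 307 CPM in the control library.

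**Figure D5:**
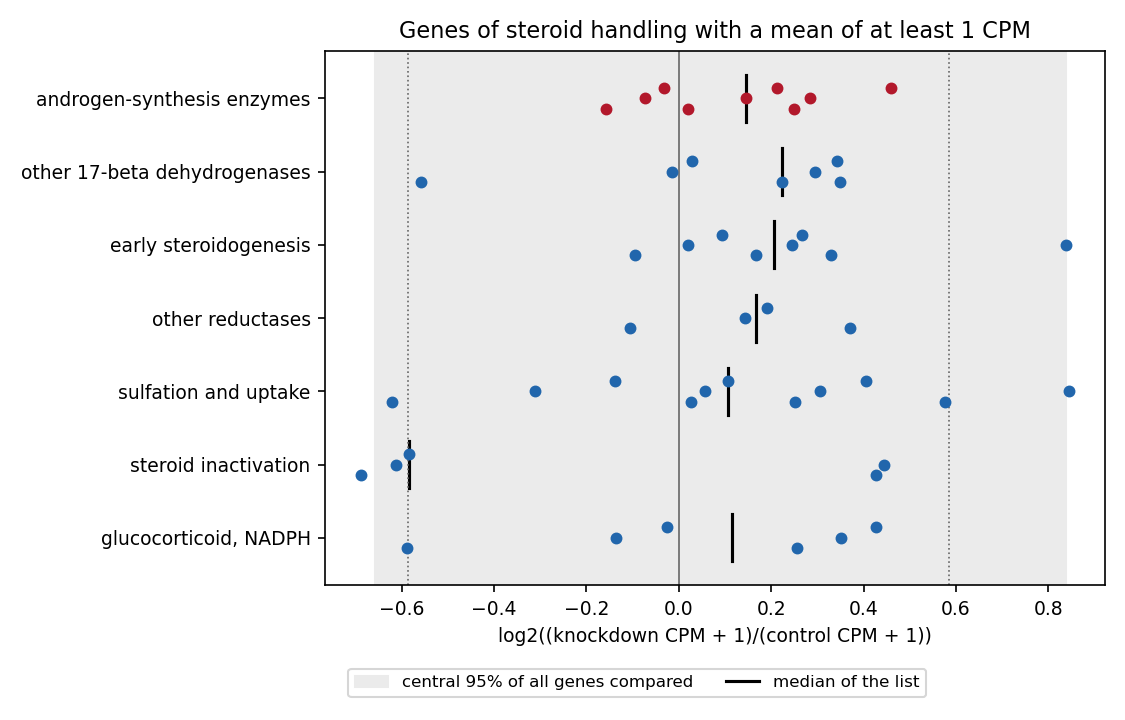
Log2 change in the knockdown library relative to control for each gene with a mean of at least 1 CPM in the androgen-synthesis enzymes (red) and in lists of other steps (blue), with the median of each list (black line), the central 95% of all genes compared (grey, -0.66 to 0.84) and 1.5-fold (dotted). The enzymes lie within the grey band, between -0.16 and 0.46.

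Androgen-responsive genes were measured beside the enzymes, and the values of the kallikreins were known when they were chosen. KLK3, which encodes prostate-specific antigen, was at 41.0 CPM in the knockdown library and 5.60 CPM in the control library, a larger difference than that of any compared enzyme. KLK2, a related protease, was at 92.5 CPM in the knockdown library and 16.4 CPM in the control library. Steroid levels were not measured, and RNA does not give the activity of an enzyme.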

How the data were processed

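RNA was measured in 1 NRP2 knockdown and 1 control library. Each deposited table lists a signal for every symbol, which the authors made by TMM scaling of reads to library size, per the file names and headers; it is called CPM here. The columns sum to 1084413 and 1024943, so the values were treated as a scaled signal and not as plain CPM, which the design had assumed. Bcl2fastq 2.17, Bowtie2 2.1.0, RSEM 1.2.15, edgeR and the build hg19 are named in the submitters' processing notes, with no role; the sources used here give no annotation or strand setting. Whole reads were recovered for 100% of values within 0.01 read. Rows whose symbol had turned into a date, 28 in number with 0.184% and 0.181% of the reads, were left out.

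The change was log2((knockdown CPM + 1)/(control CPM + 1)) where the mean reached 1 CPM, with a threshold of 1.5-fold. Ratios have exact conditional binomial intervals at 95% and levels have Poisson intervals. These intervals, and the limit of 3 reads for a count of 0, take in counting error alone, because each group holds 1 library. They treat each read as a separate molecule. No molecular identifiers tell PCR copies from separate molecules, so the intervals may be too narrow. Calculations used Python 3.11.15, SciPy 1.17.1 and Biopython 1.88 and were tested on simulated data. Transcripts, lengths and coding sequences came from GENCODE 29 (GRCh38) and were matched by symbol, with no coordinate set beside hg19. The members and lists were chosen with earlier results of these data known. All 10 members were named, and of each list of other steps up to 4 genes with the largest change; genes at or near 0 reads and those named beside a result fall outside this rule and were chosen after their values were seen. Some results of genes outside the 10 members are not reported here. Alternatives were other pseudocounts, filters, scalings and thresholds; the coding length, the binomial test and intervals with equal totals were added after seeing the data.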

Additional observations from a re-analysis of the deposited data

How the results depend on the processing

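The count of 0 enzymes at least 1.5-fold higher became 1 with a pseudocount of 0.25 CPM (AKR1C2), 1 without a filter on low values (HSD3B1) and 1 with a plain ratio past 1.5 (AKR1C2). By counting intervals 3 were higher and 1 lower as deposited, 1 and 1 with equal totals, and by the binomial test 2 and 1. With a pseudocount of 5 CPM, a filter at a mean of 5 CPM, each of the 3 other scalings or a 2-fold threshold both counts stayed at 0. The median log2 change of the enzymes ranged from 0.07 with equal totals to 0.18 with no filter or the stricter one, and that of the 3 AKR1C genes summed from 0.15 to 0.24. Of 50 recomputed values of single enzymes, 47 stayed within their counting interval. The exceptions were HSD17B10 (-0.24) and HSD17B4 (-0.06) with equal totals and HSD3B1 (1.06) with a pseudocount of 0.25 CPM. Equal totals moved the median of all genes by -0.08 and gave 587 higher and 646 lower genes, beside 769 and 476 as deposited. Depth limits the low genes: for AKR1C1, AKR1C2 and HSD17B6, with 24 to 51 reads in a library, the upper end of the ratio's interval was more than 2 times the lower end. No paired analysis was possible because each group holds 1 library.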

Other observations

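Genes that work with the most abundant enzymes outside steroid metabolism were measured as well, and their counts past 1.5-fold stand beside 5.78% upwards and 3.57% downwards of all genes compared. Of 15 genes of peroxisomal beta-oxidation, the pathway of HSD17B4, 15 were compared and 0 passed 1.5-fold in either direction, with a median log2 change of 0.11. EHHADH, the L-bifunctional protein that parallels HSD17B4, had the largest, from 106 reads in the knockdown library and 69 in the control library, a ratio of 1.49 (1.09 to 2.05). AMACR, the racemase used as a prostate cancer marker, was at 57.0 CPM in the knockdown library and 66.8 CPM in the control library. Of 9 mitochondrial partners of HSD17B10 compared, 0 passed, with a median of 0.19. TRMT10C, which forms the tRNA methyltransferase with HSD17B10, was at 81.5 CPM in the knockdown library and 81.2 CPM in the control library, and ACAT1, which acts after HSD17B10 in isoleucine breakdown, at 199 and 156 CPM. Of 12 genes of dolichol use and synthesis, the pathway of SRD5A3, 0 were higher and 1 lower, with a median of 0.05. The lower gene was DPAGT1, which adds the first sugar to dolichol phosphate, at 17.9 CPM in the knockdown library and 27.8 CPM in the control library, and ALG5, which makes the glucose donor on dolichol, was at 20.7 and 14.8 CPM.

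A list of NRF2 targets had 19 of 22 genes compared. The list also held NFE2L2 and KEAP1, which are not called targets here but are included in these counts and in the median. Of the 19 genes compared, 1 was higher and 1 lower, with a median of 0.18. AKR1C genes are known to belong to the NRF2 targets. HMOX1, heme oxygenase, was at 62.4 CPM in the knockdown library and 18.7 CPM in the control library, whereas NQO1, a standard NRF2 target, was at 151 and 169 CPM. NFE2L2, which encodes NRF2, was at 58.1 CPM in the knockdown library and 76.3 CPM in the control library, and its inhibitor KEAP1 at 88.8 and 121 CPM.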
